A study of Homo sapiens with 16 samples.

Results

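The mRNAs described here encode 9 abundant nuclear RNA-binding proteins: the SR proteins SRSF1, SRSF2 and SRSF3, the heterogeneous nuclear ribonucleoproteins HNRNPA1, HNRNPA2B1, HNRNPC, HNRNPK and PTBP1 (also called hnRNP I), and nucleolin, NCL. Their peaks were those that overlapped, on the same strand, 9 fixed hg19 gene spans in any of 8 deposited peak lists, and 64 of 175749 peaks did so. Peaks of all lists that overlapped by at least 1 bp on a strand were joined into 36802 regions, of which 13 fell in these genes. Of the 9 genes, 6 had at least 1 peak and 3 had none in any list.

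SR proteins bind exonic enhancers and recruit the spliceosome, whereas hnRNPs coat nascent transcripts and often repress the use of splice sites. Many of these proteins shuttle between nucleus and cytoplasm, and several control their own mRNA by unproductive splicing, in which an exon with a stop codon is included or an intron in the 3' end is removed so that the transcript is degraded. PABPC1, a mainly cytoplasmic protein that binds poly(A), coats the tails of mature mRNAs. Stress granules, which arsenite induces, hold untranslated mRNAs together with PABPC1 and with some hnRNPs.

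RNA immunoprecipitation and sequencing were done with an anti-Myc antibody in H1299, an established human lung carcinoma line that carried a stable Myc-tagged PABPC1, wild type (WT) or with the lysine-to-arginine change K512R. Sodium arsenite (AS), which causes oxidative stress, was given at 500 µM or left out, and the title places the study in SUMO modification of PABPC1 and U-rich mRNAs in stress granules. There were 4 pairs of replicate lists, and in 3 of them the condition in the sample record differs from that in the list's name. Pair A is recorded as WT IP with AS and named for untreated K512R, and pair B is untreated WT in both, recorded as the IP. Pair C is recorded as WT input with AS and carries the name of AS-treated K512R, and pair D is recorded as untreated WT input and named for WT with AS. Groups follow the record, so A and B are IP and C and D input, while by name A and B are untreated and C and D had AS. In the order of the sample record, pairs B, D, A and C carry the names WT, WT with AS, K512R and K512R with AS. By name each pair is thus a different condition, and no condition has both an IP and an input pair. On that reading all 8 lists may be IP. Which reading is right was not settled, and each result is therefore given by its pairs. The other 8 samples of the record, all titled K512R, had no list here, although by name pairs A and C are K512R. Nothing in the labels says whether replicates were separate cultures or whether a line was 1 clone. The lists held 19953 to 25111 peaks and give no read counts, so the depth is unknown, and a region without a peak is one where none was called and not one shown to lack RNA.

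The reference used here holds no hg19 genome, so the bases under the peaks are not printed. RefSeq windows around gene starts, on GRCh38.p14, were found for 7 of the 9 genes. The stretches below are shown because peaks of SRSF3, HNRNPC and PTBP1 lay at the 5' edge of their spans, while SRSF1 and HNRNPA2B1 had no peak anywhere. Each runs 5′ to 3′ on the strand of the gene, and the capitals mark the first 30 transcribed bases by RefSeq.
SRSF3 (chr6:36594332-36594391, plus strand): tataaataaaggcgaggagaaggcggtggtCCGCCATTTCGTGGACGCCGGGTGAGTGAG
HNRNPC (chr14:21269413-21269472, minus strand): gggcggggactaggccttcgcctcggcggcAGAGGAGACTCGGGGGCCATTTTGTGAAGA
PTBP1 (chr19:797422-797481, plus strand): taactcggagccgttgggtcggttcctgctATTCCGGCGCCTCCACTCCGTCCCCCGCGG
SRSF1 (chr17:58007217-58007276, minus strand): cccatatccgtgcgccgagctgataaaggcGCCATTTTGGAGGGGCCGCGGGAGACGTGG
HNRNPA2B1 (chr7:26200717-26200776, minus strand): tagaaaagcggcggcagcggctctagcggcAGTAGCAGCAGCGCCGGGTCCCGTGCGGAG
Over the first 50 transcribed bases, T made up 26.0% in SRSF3, 24.0% in PTBP1 and 20.0% in HNRNPC, SRSF1 and HNRNPA2B1, against a median of 20.0% over 35116 windows of the table. Pyrimidines made up 66.0% in PTBP1, more than in 93.6% of the windows, and 34.0% in HNRNPC, where 7.44% of the windows had fewer. The starts thus ranged from pyrimidine-rich to purine-rich among the genes with a peak there. The letters GCCATTT, searched on both strands after the sequences had been seen, occurred within the 60 printed bases of SRSF1, SRSF3 and HNRNPC, 3 of the 7 genes with a window, and in 1.10% of the same stretches over all windows. Because the letters were picked from these sequences, a share above that of all windows followed from the choice and shows no enrichment. The genes with these letters include some with and some without a peak. Whether these GRCh38 starts are the bases that open the hg19 spans was not matched.

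Over all 9 genes, the lists of A and B held fewer peaks than those of C and D. The counts were 6 and 8 in A, 3 and 7 in B, 9 and 10 in C, and 10 and 11 in D, so no list of A or B reached a list of C or D. The mean was 6.0 ± 2.16 peaks in A and B and 10 ± 0.816 in C and D (SD, n = 4 each). Whole lists went the other way, with 21979 to 25111 peaks in A and B and 19953 to 21160 in C and D. The length covered by the members' peaks was 1269 and 3624 bp in A, 784 and 2005 bp in B, 3399 and 3513 bp in C, and 6027 and 6225 bp in D. One list of A lay above both lists of C, so the covered length overlapped between the sets, with means of 1920.5 ± 1242 bp and 4791 ± 1544 bp (SD, n = 4 each). As a share of all bases covered in a list, the members took 94.1 to 366 bp per Mb in A and B and 503 to 871 bp per Mb in C and D, and on that scale the sets did not overlap. The divisor itself differed, as whole lists covered 8330026 to 9914218 bp in A and B and 6698764 to 7146593 bp in C and D. Even HNRNPK, at 98 bp in all 8 lists, separated the sets on that scale, so the scale alone can part them. No p is given for the sums over the 9 genes, because the genes were chosen with earlier results of these lists known.

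**Figure D1:**
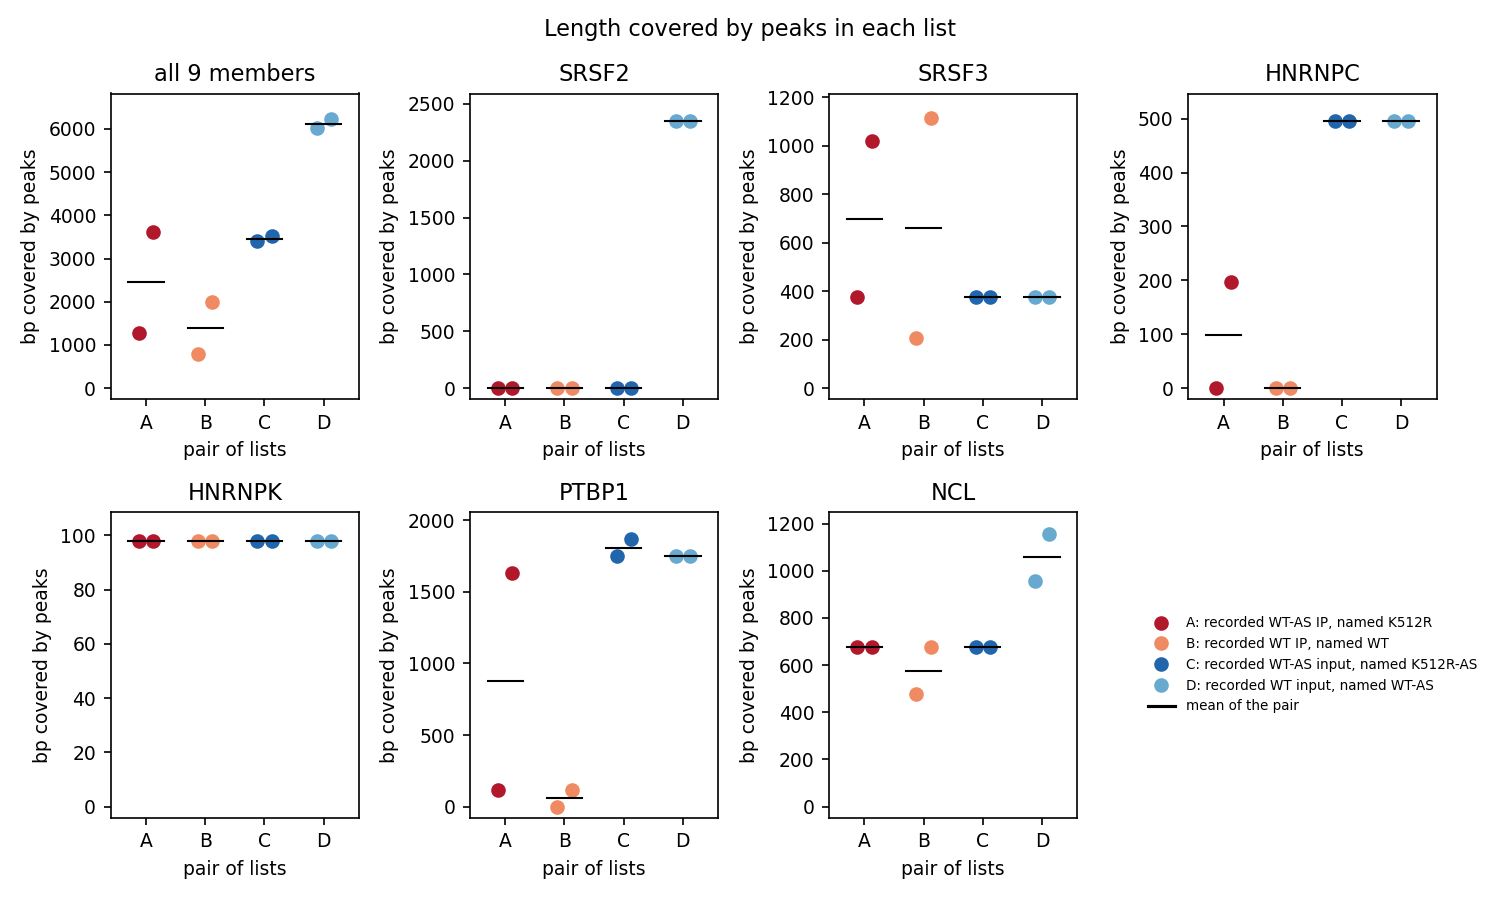
Length in bp covered by peaks (y axis) for all 9 members together and for each of the 6 genes with a peak, in the 2 lists of pairs A, B, C and D (x axis); points are lists and lines the mean of a pair. HNRNPC and PTBP1 are lower in all 4 lists of A and B than in all 4 of C and D, HNRNPK is at 98 bp in all 8, and SRSF2 is above 0 in pair D alone.

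HNRNPC and PTBP1 were the genes of the 9 whose coverage was lower in A and B than in C and D with no overlap of lists. Without an hg19 annotation no such share could be had over all genes, and over single regions 3.3% were lower and 5.98% higher in A and B at the same unadjusted exact p. HNRNPC, which binds uridine tracts in nuclear pre-mRNA, had 0 and 197 bp covered in A, 0 and 0 bp in B, and 496 bp in each list of C and of D. The difference was -446.75 bp between A with B and C with D (exact 2-sided permutation test, p = 0.0286, n = 4 each, the smallest this design can give). PTBP1, which binds pyrimidine tracts and represses exons, had 118 and 1634 bp in A, 0 and 118 bp in B, 1752 and 1866 bp in C, and 1748 bp in both lists of D. Its difference was -1311 bp (exact 2-sided permutation test, p = 0.0286, n = 4 each). No single region of PTBP1 separated the sets, since its widest, of 1634 bp, was also in 1 list of A. The lists of C and D exceeded that list of A only through narrow regions of 114 bp, 118 bp or both. For PTBP1 the exact permutation p was 0.143 with scores of at least 100 and 0.0571 without any 1 list of C or D, while that of HNRNPC stayed at 0.0286 in these cases. Each of these values is unadjusted, and the test takes the 8 lists as independent. The genes were chosen with earlier results of these lists known. The p-values here and for the other genes below therefore describe the lists and cannot serve as support for a separation. Counted by pairs, an exact test could not pass 0.05, and permuting within replicate numbers gave p = 0.0556 for both genes, the smallest that block allows in an exact permutation test (n = 4 each).

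NCL, SRSF3, SRSF2 and HNRNPK did not separate the 2 sets in covered length. NCL, the nucleolar protein of ribosomal RNA synthesis, had 676 and 676 bp in A, 478 and 676 bp in B, 676 and 676 bp in C, and 958 and 1156 bp in D. Pair D was the highest and the other 3 pairs shared the value of 676 bp (A with B minus C with D -240 bp, exact permutation test, p = 0.286, n = 4 each). SRSF3 had 377 and 1019 bp in A, 208 and 1113 bp in B, and 377 bp in each list of C and D, so in B the replicates lay on both sides of C and D, and in A one equalled C and D and the other lay above them (difference 302.25 bp, exact permutation test, p = 0.429, n = 4 each). SRSF2 had 2350 bp in each list of D and 0 bp in the other 6 lists. HNRNPK, a poly(C)-binding protein, had 98 bp in all 8 lists. Between A with C and B with D (recorded as AS and untreated, named as K512R and WT), no gene was separated, and the smallest exact permutation p was 0.371, for PTBP1 (1342.5 ± 822 and 903.5 ± 976 bp, n = 4 each). None of the 13 regions lay in all lists of A and C while missing from B and D (0.0652% of all regions), nor the reverse (0.0489% of all regions). By covered length 0.163% of all regions were higher and 0.223% lower in A and C at an unadjusted exact p under 0.05, and no member region was among them.

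**Figure D2:**
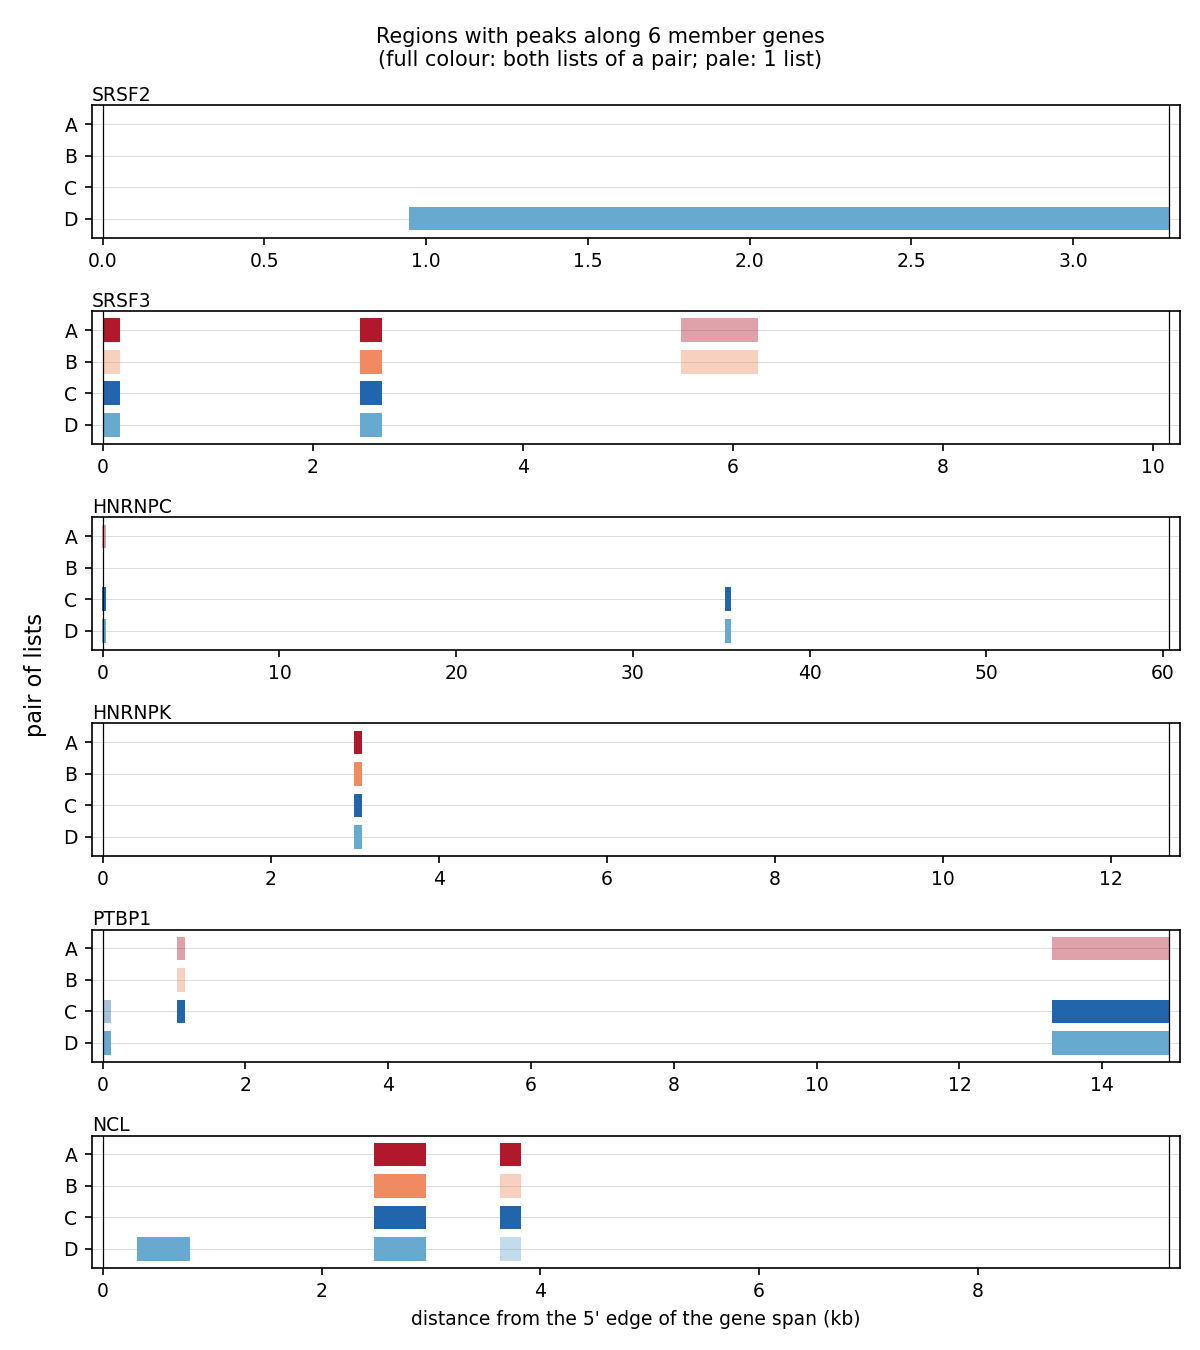
Regions with peaks along the 6 genes, as distance in kb from the 5' edge of the hg19 span (x axis, a separate scale per gene), with a row for each pair of lists; full colour marks a peak in both lists of a pair, pale colour in 1 list, and vertical lines the edges of the span. Peaks at the 3' edge occur in SRSF2 and PTBP1, while those of NCL and HNRNPK lie inside the span.

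The peaks of a gene sat at the same bases from list to list. In 12 of the 13 regions every peak had identical ends, and in the other one, the third of SRSF3, its 2 peaks differed. Of the 30472 regions of the series with 2 or more peaks, 76% had identical ends too, so this was common in these lists. Why the ends match was not tested. Where they do, covered length differs between lists only by whole regions. It then shows which regions had a peak and not how far a signal extended. The regions were 98 to 2350 bp wide with a median of 208 bp, against 180 bp over all regions. A pair of regions began on the first base of the span, in SRSF3 and PTBP1, and a pair ended on the last base, in SRSF2 and PTBP1. Exons and introns were not assigned, since no hg19 annotation was used here.

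Among the SR proteins, SRSF3, a small factor of this family that also promotes mRNA export, was the only one with peaks in all 8 lists. Its first region (chromosome 6, 36562090 to 36562258, plus strand) covered the first 169 bp of the span and was found in both lists of A, 1 list of B and both lists of C and of D. Its second region (36564538 to 36564745, 208 bp) lay 2448 bp into the span and was found in all 8 lists. The third (36567598 to 36568333, 736 bp) lay past the middle of the span, from 54.2% to 61.5% of its length, and was found in 1 list of A and 1 of B. In A it was a weak peak, at percentile 1.30 of the scores of its list, and in B at percentile 28.7. The score is the authors' value for a peak, of unstated unit, and serves here to rank the peaks of 1 list, with percentile 100 the best.

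SRSF2, another SR protein, had a single region, on chromosome 17 from 74730197 to 74732546 (minus strand). It spanned 2350 of the 3297 bp of the gene, from 28.7% of its length to its 3' edge, and was the widest of the 13. Both lists of D held it, at percentiles 77.5 and 65.1, and no list of A, B or C did. SRSF1, the founding member of the family, had no peak in its 6428 bp span (chromosome 17, 56078280 to 56084707, minus strand), and the nearest region on its strand lay 17526 bp away. HNRNPA1 and HNRNPA2B1, which are close relatives that bind UAG-containing motifs, also had none, in spans of 4543 bp (chromosome 12, 54674488 to 54679030, plus strand) and 10858 bp (chromosome 7, 26229556 to 26240413, minus strand). The nearest regions on their strands lay 39837 and 466268 bp away. None of these 3 spans held a peak on the other strand.

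HNRNPC had both its regions in each list of C and D. The first (chromosome 14, 21737457 to 21737653, minus strand, 197 bp) reached 15 bp past the 5' edge of the span and was also found in 1 list of A, at percentile 42.3, whereas in C it lay at percentiles 85.9 and 94.3 and in D at 87.6 and 95.3. The values 94.3 and 95.3 belong to a score of 3100, at which many of the best peaks of a list were tied. The second (21702112 to 21702410, 299 bp) lay 35228 bp into the span. It was found in no list of A or B and in every list of C and D, at percentiles 54.5 and 66.7 in C and 78.9 and 64.5 in D. This was the 1 region of the 13 with that pattern, which 3.01% of all regions had, and none of the 13 had the reverse, which 5.09% of all regions had. Over all 36802 regions the exact permutation test of covered length gave this region p = 0.0286 before and 0.308 after Benjamini-Hochberg adjustment (n = 4 each). No region of any gene passed 0.05 after adjustment, while 5.98% were higher and 3.3% lower in A and B at the unadjusted p of 0.0286. As 0.0286 is the smallest p here, a region could pass only if most regions reached it too. The design thus nearly fixed this outcome, and nothing is concluded from it.

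PTBP1 had 3 regions, and each of them differed between the replicates of at least 1 pair. The first (chromosome 19, 797392 to 797505, plus strand, 114 bp) opened the span and was found in no list of A or B, in 1 list of C and in both of D. The second (798428 to 798545, 118 bp) was found in 1 list of A, 1 of B and both of C, and in no list of D. The third (810694 to 812327, 1634 bp) reached the 3' edge and was found in 1 list of A, no list of B and both lists of C and of D. Near the start of the gene, both lists of D thus held the first region without the second, while 1 list of C held both and the other the second alone. All 3 were weak to middling peaks, at percentiles of 19.2 to 70.03 wherever they occurred.

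HNRNPK had a single narrow region of 98 bp (chromosome 9, 86592604 to 86592701, minus strand), 2991 bp into the span and found in all 8 lists. Its percentile was 62.2 and 67.9 in A, 80.1 and 78.9 in B, 94.7 and 94.3 in C, and 94.8 and 95.3 in D. In all lists of C and D it had the score of 3100, at which many of the best peaks were tied, and in A and B it stayed below. NCL had 3 regions on chromosome 2, minus strand, all in the first 39.3% of the span. The one at 232328412 to 232328891 (480 bp), nearest the start, was found in both lists of D alone, at percentiles 32.7 and 79.96. The next (232326251 to 232326728, 478 bp) was found in all 8 lists, and the last (232325380 to 232325577, 198 bp) in both lists of A, 1 of B, both of C and 1 of D.

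**Figure D3:**
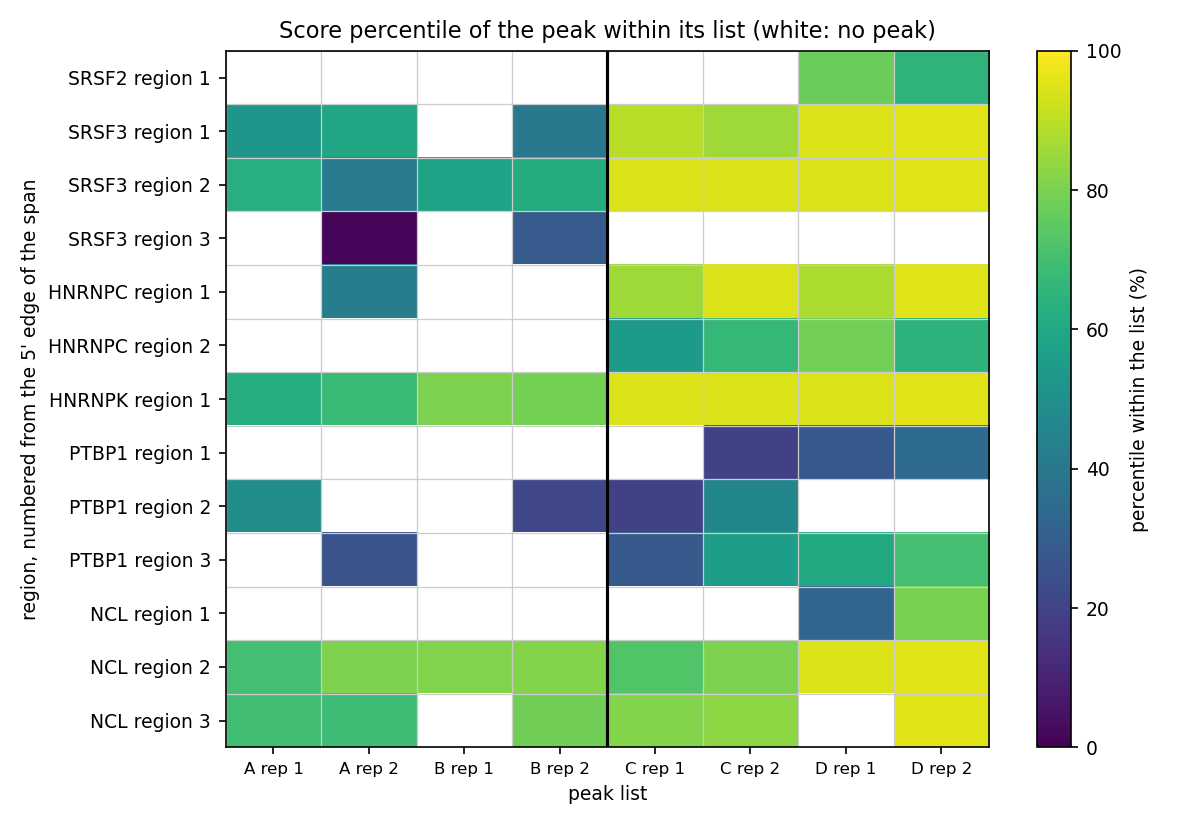
Percentile of each peak's score within its own list (colour, in %), for the 13 regions (rows, numbered from the 5' edge of each span) in the 8 lists (columns); white means that no peak was called. SRSF3 region 2 and HNRNPK region 1 have peaks in every list and reach the tied score of 3100 in each list of C and D and in none of A and B.

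The 3 regions in all 8 lists, in SRSF3, HNRNPK and NCL, were 3 of 13, where 29.5% of all regions had a peak in every list. In SRSF3 the percentiles were 62.8 and 41.7 in A, 57.6 and 61.7 in B, 94.7 and 94.3 in C, and 94.8 and 95.3 in D. SRSF3 and HNRNPK, 2 of these 3, had every score in C and D above every score in A and B, an order that 18.9% of the 10872 regions found in all lists had, while 25.4% had the reverse order. Both also reached 3100 in each list of C and D and in none of A and B, as 2.9% of those regions did, and 2.95% did the reverse. In NCL the percentiles overlapped between the sets, with 70.2 and 80.6 in A, 81.2 and 81.4 in B, 72.9 and 80.3 in C, and 94.8 and 95.3 in D. Its score in both lists of D was the tied 3100. These are ranks in lists of different length and do not show by themselves that a level changed.

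Of the 13 regions, 7 had a peak in more lists of C and D than of A and B, 1 in more lists of A and B, and 5 in as many. Over all regions 25.8% leaned to C and D, 39.8% to A and B, and 34.5% to neither. The one region of these genes that leaned to A and B was the third of SRSF3. The members' regions thus leaned mostly to the side that held fewer regions in the whole series, and 13 regions in 6 genes are not independent of each other.

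Pair B was set against pair D. In the record this is IP against input of untreated WT cells, and going by list names it is untreated against AS-treated WT cells. None of the 13 regions found in these lists was in both lists of B and neither of D, where 11.4% of all regions were. The reverse held for 6 of the 13, where 9.68% of all regions had it. These 6 were the region of SRSF2, both of HNRNPC, the first and the third of PTBP1 and the region of NCL nearest its start. They came from 4 of the 9 genes. In a comparison of 2 lists with 2 an exact test has 3 splits and cannot pass 0.05, so no p is given here or for the other pairs.

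Pair A was set against pair C, which the record gives as IP against input under AS in WT cells and the list names as untreated against AS-treated K512R cells. Of 11 regions in these lists none was in both of A and neither of C, where 16% of all regions were. One, the second region of HNRNPC, was in both of C and neither of A, where 6.94% of all regions were. The first region of HNRNPC and the third of PTBP1 missed this pattern through 1 list of A, replicate 2, and without that list 3 regions had it. Whether the members differ between B against D and A against C was not tested.

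Pair A was set against pair B, recorded as AS-treated against untreated WT IP and named as K512R against WT, both untreated. Of 9 regions in these lists, none was in both of A and neither of B (5.88% of all regions) and none was in both of B and neither of A (1.92% of all regions). The lists of B differed from each other, since replicate 1 held 3 regions and replicate 2 held those 3 and 4 more. Without replicate 2 of B, 2 regions were in both of A and not in B.

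Pair C was set against pair D, recorded as AS-treated against untreated WT input and named as K512R against WT under AS. Of 12 regions, the second of PTBP1 was in both of C and neither of D, where 3.95% of all regions were. The region of SRSF2 and the NCL region nearest the start were in both of D and neither of C, where 5.02% of all regions were. SRSF2 made up most of the difference in covered length between these pairs, with 0 bp in C and 2350 bp in D, against totals of 3456 ± 80.6 bp in C and 6126 ± 140 bp in D (SD, n = 2 each). The presence of PTBP1 region 2 rested on weak peaks, at percentiles 19.2 and 46.1 in C.

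**Figure D4:**
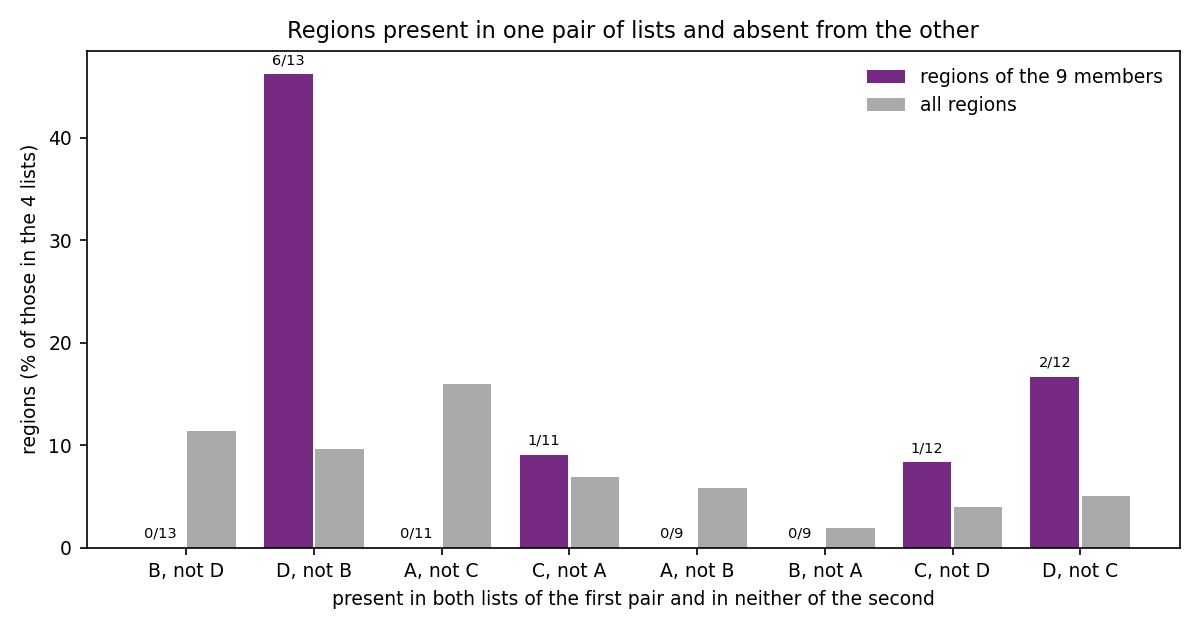
Share of regions (y axis, % of those with a peak in the 4 lists compared) that were present in both lists of one pair and absent from both of another (x axis), for the regions of the 9 genes (purple, with counts above the bars) and for all regions (grey). The bar for D and not B stands at 6 of 13 regions, beside 9.68% of all regions.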

How the data were processed

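The authors deposited the 8 peak lists used here, each of 1 sample, with start, end, strand and a score of unstated unit and scale (13.02 to 3233.06), whose peak names begin with MACS, a peak caller. Per the submitters' processing notes, cutadapt 1.9.3, HISAT2 2.0.4 and hg19 were used. The caller's version, control and threshold are not stated in the sources used here. Starts were turned to count from 1. Whole peaks overlapping a span by at least 1 bp on its strand were counted for that gene, and their bp summed. Exact 2-sided permutation tests used the 70 orders of 4 lists against 4. The planned test of the sum over genes is not reported, nor were the planned other splicing genes located, since no hg19 annotation was used; the line's markers were not checked for the same reason. All 9 genes are named, with every region, as planned. The genes, lists and tests were chosen with earlier results of these data known, and score percentiles, the GCCATTT search and base composition after values were seen. Replicate numbers were not used to pair the lists in the main tests. Deviations of same-numbered lists correlated at 0.0123 to 0.0280 over 6 combinations of pairs, all low and positive. Whether same-numbered lists shared a batch was not tested. Alternatives changed score, list length, scale, joining, overlap, assignment, block and replicates. The tests and patterns were run on simulated regions planted in every list of one set and none of the other. Such regions are found by construction, so this checked the code and not the performance where replicates differ. Software was matplotlib 3.10.9, scipy 1.17.1, pandas 2.3.3 and numpy 2.4.6 under Python 3.11.15.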

Additional observations from a re-analysis of the deposited data

How the results depend on the processing

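Lists are named here by pair, and differences are A and B minus C and D unless stated. The difference in covered length over the 9 genes was negative under every alternative run, and without 1 list at a time it ran from -3438 to -2392.5 bp. Per Mb covered in a list it was -479 bp. The count of genes separated with an exact unadjusted p under 0.05 was 2 as deposited, 1 with scores of at least 100, and 1 to 2 without 1 list. It was 4 per Mb, where HNRNPK and NCL joined because their bp were divided by unequal list totals, and 0 under the replicate block, which cannot give a p under 0.0556. That block changed no other call. PTBP1 lost its separation with scores of at least 100 (-1225.5 bp). SRSF3 turned to -136.5 bp with scores of at least 100, where region 3 drops out of both lists that held it, region 1 out of 1 list of B and region 2 out of 1 list of A. The number of regions in every list of C and D and none of A and B was 1, then 2 with scores of at least 100 and 1 to 3 without 1 list.
For A and C minus B and D, with no gene separated as deposited, covered length over the 9 genes was -809 bp, -140 bp per Mb, and -1801 to 12.6 bp without 1 list. The number of peaks ran from -1.08 to 1.58 without 1 list. SRSF3 turned from 18.75 bp to -141.75 bp with lists of equal length and to -2.87 bp per Mb, and without 1 list it ran from -141.75 to 216.8 bp. HNRNPC ran from -33.4 to 148.3 bp without 1 list, with -17.0 bp without either list of C, and SRSF3 was at -84.8 and -28.5 bp without replicate 1 of B and either list of D. PTBP1 was at -349.5 bp with scores of at least 100.
Of the counts between pairs, regions in both of C and neither of A went to 2 with scores of at least 100 and 1 to 3 without 1 list. Regions in both of A and neither of B went to 1 and 0 to 2, those in both of C and neither of D to 0 and 1 to 2, and those in both of D and neither of C to 1 and 2 to 3. Those in both of B and neither of D ran from 0 to 2 without 1 list, those in both of A and neither of C from 0 to 1, and those in both of D and neither of B from 6 to 7. Joining peaks up to 100 bp apart, asking for 50% of a region or for regions wholly within the span kept these counts within 1.5 times. The causes were not tested where none is given. Depth is unknown, and precision rests on 2 lists per pair.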

Other observations

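Peaks on the strand opposite to a member lay at 2 of the 9 genes. One at chromosome 9, 86595637 to 86595919 (plus strand, 283 bp), over the 5' edge of the HNRNPK span, was found in all 8 lists. Its scores were 181 and 804 in A, 557 and 1216 in B, and 3100 in each list of C and D, so it reached the tied score in the same lists as the HNRNPK region itself. The other, at chromosome 17, 74733469 to 74734609 (plus strand, 1141 bp), over the 5' edge of the SRSF2 span, was found in 1 list of C, which held no peak of SRSF2 on its own strand. How the authors assigned strand is not stated in the sources used here.

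Replicate 2 held more of the 13 regions than replicate 1 in every pair. Regions in replicate 2 alone numbered 3 in A, 4 in B, 1 in C and 1 in D, and those in replicate 1 alone 1 in A and 0 in the other pairs. Over all regions, as a share of those in a pair, replicate 2 alone also held more in every pair, with 14.7% against 11.3% in replicate 1 alone of A, 13.8% against 13.3% in B, 15.4% against 11.1% in C, and 14.6% against 11.1% in D.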
